A study of Mus musculus with 6 samples.

Results

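Glycine cleavage and mitochondrial folate enzymes were examined in testis of wild-type and DREAM transgenic mice as a set of 10 genes (Gcsh, Gldc, Amt, Dld, Shmt1, Shmt2, Mthfd1, Mthfd1l, Mthfd2 and Mthfd2l), through every probe set annotated to 1 of them alone. Such probe sets were found for 9 of the 10 genes, 22 probe sets out of 34945 with a single gene and 45037 tested. Amt had none, so its expression was not analysed here. The set was selected on the transgenic minus wild type difference of Gcsh and Mthfd2l, which had been among the larger increases on these same arrays, and the other members were added for their function. The differences of that pair are therefore given as a description, and the adjusted p-values of all members are those of 1 fit over all probe sets.

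RNA of adult testis, freshly dissected, was measured on Affymetrix mouse arrays, 1 per sample. The wild-type group and the group with a constitutively active DREAM mutant had 3 arrays each, and both were of a C57BL/6 x CBA hybrid background. DREAM (the product of Kcnip3) binds calcium and, in its calcium-free state, represses transcription. The promoter that drives the transgene, the number of transgenic lines and any pooling of animals are not given in the sources used here. The submitters describe the arrays as independent biological replicates, and their number, 3 per group, limits the precision of every value. All values are RMA log2 intensities per probe set. They carry no detection call, and levels of different probe sets are not compared.

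The glycine cleavage system is a mitochondrial complex that breaks glycine down and passes its carbon to tetrahydrofolate. Its P protein (Gldc) decarboxylates glycine, the H protein (Gcsh) carries the aminomethyl group on a lipoate arm, the T protein (Amt) releases it to folate and the L protein (Dld) reoxidises the lipoate. Serine hydroxymethyltransferases (Shmt1 in the cytosol, Shmt2 in mitochondria) interconvert serine and glycine with the same carbon carrier. The Mthfd enzymes (Mthfd1 in the cytosol, Mthfd2, Mthfd2l and Mthfd1l in mitochondria) pass that carbon between folate forms and formate. Of these, Mthfd1l is a formyltetrahydrofolate synthetase and not a dehydrogenase. The carbon feeds purine and thymidylate synthesis.

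DREAM binds DNA at a downstream regulatory element whose core is GTCA, so the bases before the start of the genes that the results turn on are shown first. RefSeq (GRCm38.p6) held a start for all 10 genes. The windows are the 250 bases before that start, 5′ to 3′ on the gene's strand, in lower case with each GTCA or its reverse complement TGAC in capitals. Gcsh lies at chr8:116993499-116993748 (minus strand), Mthfd2l at chr5:90930946-90931195 (plus strand) and Dld at chr12:31351472-31351721 (minus strand). Gcsh and Mthfd2l are shown as the pair that differed between the genotypes, and Dld as a partner of Gcsh that did not pass the test.
Gcsh: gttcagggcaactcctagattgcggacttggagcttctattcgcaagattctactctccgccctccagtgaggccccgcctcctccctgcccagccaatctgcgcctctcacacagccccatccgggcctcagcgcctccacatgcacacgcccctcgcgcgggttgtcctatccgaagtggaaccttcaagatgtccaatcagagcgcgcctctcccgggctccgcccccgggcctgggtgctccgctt
Mthfd2l: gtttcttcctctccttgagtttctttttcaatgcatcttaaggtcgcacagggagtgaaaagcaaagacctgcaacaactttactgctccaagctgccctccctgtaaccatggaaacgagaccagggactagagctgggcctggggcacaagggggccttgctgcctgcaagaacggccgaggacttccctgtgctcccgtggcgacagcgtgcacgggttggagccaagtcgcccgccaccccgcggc
Dld: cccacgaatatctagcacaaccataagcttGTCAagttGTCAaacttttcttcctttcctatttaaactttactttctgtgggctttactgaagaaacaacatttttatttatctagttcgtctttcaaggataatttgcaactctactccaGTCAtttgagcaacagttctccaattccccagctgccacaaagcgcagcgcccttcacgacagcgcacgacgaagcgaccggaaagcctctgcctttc
The Gcsh and Mthfd2l windows held 0 matches to the core on either strand, as did those of Gldc and Shmt2. The Dld window held 3. Amt had 3 as well, Mthfd1l and Mthfd2 had 2 each, and Shmt1 and Mthfd1 had 1 each. In all, 6 of the 10 members held the core, against 80.2% of the 32851 windows of the same length in the table. The cyclic AMP response element TGACGTCA, which contains the core on both strands, was in none of the 10 windows and in 1.55% of all windows. The C/EBP-ATF element TGATGNAA was likewise in none of the 10 and in 3.45% of all windows, both strands searched. The GC content of the member windows ran from 40.8% (Shmt2) to 64.4% (Gcsh), with a median of 52.4% over all windows. These are matches of letters in a window, not binding sites. The Mthfd2l window lies inside the annotated span of its gene, so other starts of that gene are not covered. Every window ends at the start, and bases downstream of it were not searched. A window with 0 matches therefore does not show that the gene lacks the element.

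Among the 3 measured parts of the glycine cleavage system, the H protein gene Gcsh had its 1 probe set past the threshold, higher in transgenic testis. The background is 0.444% of all probe sets in either direction. Gcsh was chosen for this increase, so no contrast with Gldc and Dld is read from the call. Gcsh (1432164_a_at, chromosome 8) read 7.80, 8.36 and 8.01 on the wild-type arrays and 9.23, 9.11 and 9.35 on the transgenic arrays (log2 intensity). Every transgenic array lay above every wild-type array, and wild type replicate 2 was the highest of the wild-type arrays. The means were 8.06 ± 0.28 and 9.23 ± 0.12 (SD, n = 3 each), a log2 difference of 1.17 (SE 0.14, 95% interval 0.85 to 1.50) or 2.26-fold in intensity. The limma adjusted p was 0.00947, with a rank of 12 among the 45037 probe sets for the size of an increase. This is one of the values that chose the members. The gene rests on 1 probe set, of the class (_a_at) that recognises several transcripts of a gene. The call was lost without wild type replicate 3 (adjusted p = 0.0619) and without transgenic replicates 1 (0.0755), 2 (0.0626) or 3 (0.0785), with differences between 1.11 and 1.23.

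Gldc, the glycine decarboxylase that works directly with the H protein, read 7.60, 8.06 and 7.90 in wild type and 7.89, 7.88 and 8.11 in transgenic testis (1416049_at, chromosome 19). The groups overlapped, and the difference was 0.11 (SE 0.13, 95% interval -0.19 to 0.40, limma adjusted p = 0.965). Dld, the lipoamide dehydrogenase that glycine cleavage shares with the pyruvate and other 2-oxoacid dehydrogenase complexes, read 8.71, 9.13 and 8.95 against 9.14, 8.99 and 8.83 with its brighter probe set (1423159_at, chromosome 12). These also overlapped, with a difference of 0.06 (SE 0.13, interval -0.23 to 0.35, adjusted p = 0.982). The other Dld probe set (1433263_at) read 4.83 ± 0.12 and 4.86 ± 0.28 (SD, n = 3), a difference of 0.03 (adjusted p = 0.993). Neither partner passed the test with any probe set, where the background is 0.444% of all probe sets in either direction.

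**Figure D1:**
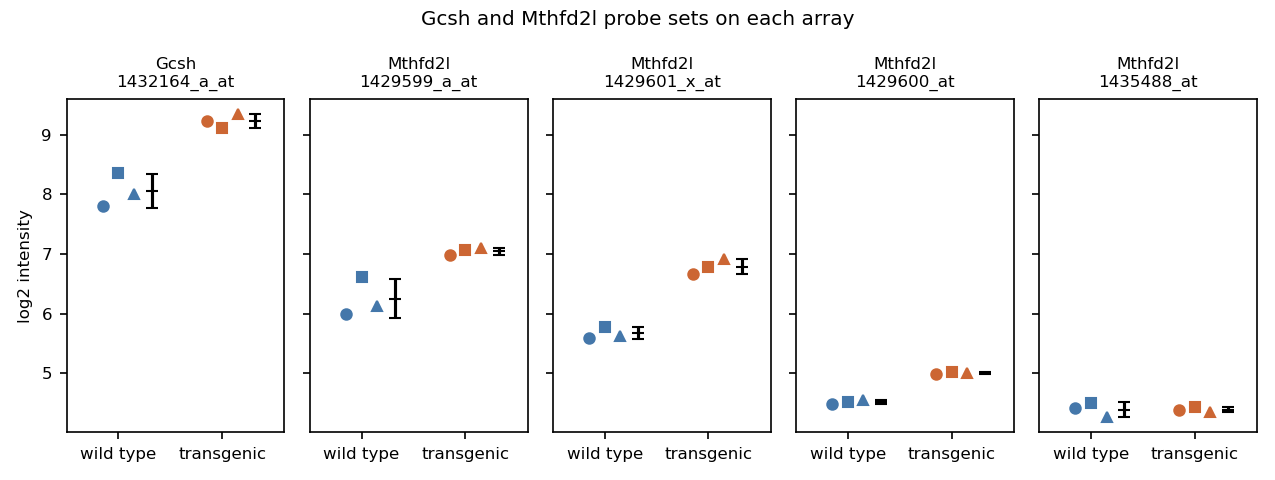
Log2 intensity of the Gcsh probe set and the 4 Mthfd2l probe sets on each array (circle, square and triangle are replicates 1, 2 and 3; blue wild type, orange transgenic; black marks show the mean and SD of 3 arrays). The groups are apart in the first 4 panels and overlap in the last, where both means are 4.39.

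In the mitochondrial folate branch, 2 of the 4 probe sets of Mthfd2l passed, both higher in transgenic testis, and 0 of the 2 of its close relative Mthfd2 and 0 of 1 of the formate-producing Mthfd1l (background 0.444% in either direction). The groups did not overlap with 3, 1 and 0 of these probe sets (11.3% of all probe sets). Mthfd2l is a methylenetetrahydrofolate dehydrogenase of the mitochondrial matrix, on chromosome 5. Its probe set 1429601_x_at read 5.59, 5.78 and 5.63 in wild type and 6.66, 6.79 and 6.92 in transgenic testis. All transgenic arrays lay above all wild-type arrays, with means of 5.67 ± 0.10 and 6.79 ± 0.13 (SD, n = 3). The log2 difference of 1.12 (SE 0.10, 95% interval 0.89 to 1.35), 2.18-fold in intensity, had a limma adjusted p of 0.00158 and a rank of 15 among all increases. It too is a value that chose the members. The _x_at class can match unrelated transcripts. The call held with each array left out in turn (adjusted p 0.000586 to 0.0229).

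The probe set 1429599_a_at of Mthfd2l read 6.00, 6.62 and 6.13 in wild type and 6.98, 7.06 and 7.10 in transgenic testis. The groups did not overlap, and wild type replicate 2 stood nearest to the transgenic arrays. The difference was 0.80 (SE 0.15, interval 0.46 to 1.14), and the limma adjusted p of 0.0767 lay just outside the threshold. Without wild type replicate 2 the difference was 0.98 (adjusted p = 0.0012), and without each of the other arrays it was 0.67 to 0.83 (adjusted p 0.16 to 0.359). The probe set 1429600_at read 4.48, 4.52 and 4.55 against 4.99, 5.02 and 5.01, a narrow spread at low intensity with no overlap. Its difference of 0.49 (SE 0.08, interval 0.30 to 0.68) lay just inside the threshold (adjusted p = 0.0468), and ceased to pass without wild type replicate 1 (0.133) or 3 (0.234) or transgenic replicate 1 (0.211), 2 (0.237) or 3 (0.213), and with the replicate number as a block (0.204). It was also lost after quantile normalization again (0.0534) and median centring (0.0809), with trend and robust eBayes (0.0512) and with an RNA integrity covariate taken from the Gapdh control probe sets (0.381). The fourth, 1435488_at, read 4.41, 4.50 and 4.26 against 4.39, 4.44 and 4.34, with overlapping groups and equal means (interval -0.22 to 0.22, adjusted p = 1). The mean level of 1435488_at was also low, at percentile 17.2 of all probe sets, with 1429600_at at 24.4. Without detection calls, equal means at such a level do not show that the transcript was unchanged. The probe sets of Mthfd2l thus gave different sizes of difference, and no single fold can be stated for the gene.

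Mthfd2, the bifunctional dehydrogenase and cyclohydrolase best known from embryonic and proliferating cells, read 8.54, 8.60 and 8.62 in wild type and 8.73, 8.55 and 8.71 in transgenic testis with 1419253_at (chromosome 6). These groups overlapped, with a difference of 0.08 (SE 0.09, interval -0.13 to 0.28, limma adjusted p = 0.965). Its second probe set (1419254_at) read 8.25, 8.24 and 8.06 against 8.34, 8.26 and 8.27. Here the groups did not overlap, by a gap that is small beside the spread, and the difference of 0.11 did not pass (SE 0.09, interval -0.10 to 0.32, adjusted p = 0.935). Mthfd1l, the mitochondrial formyltetrahydrofolate synthetase, read 6.31, 6.29 and 6.42 against 6.44, 6.44 and 6.26 (1456653_a_at, chromosome 10). The difference was 0.04 (SE 0.09, interval -0.17 to 0.25, adjusted p = 0.983), with overlapping groups.

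The serine hydroxymethyltransferases and the cytosolic trifunctional enzyme did not pass with any of their 11 probe sets. The background is 0.444% of all probe sets in either direction, so 0 of 11 is near that share. Shmt1 (chromosome 11) was read by 4 probe sets with differences from -0.19 to 0.09. The lowest of them, 1425179_at, read 8.58, 8.69 and 8.52 in wild type and 8.57, 8.23 and 8.43 in transgenic testis, which overlap (SE 0.11, interval -0.43 to 0.06, limma adjusted p = 0.853). Shmt2 (chromosome 10), which makes glycine from serine in mitochondria, was read by 4 probe sets with differences from -0.11 to 0.13. The widest interval of any member was that of Shmt2 1426423_at, from -0.54 to 0.32, where transgenic replicates 2 and 3 read 7.16 and 6.41. Mthfd1 (chromosome 12) was read by 3 probe sets with differences from -0.04 to 0.11. Its brightest, 1415916_a_at, read 7.88, 7.87 and 7.84 against 7.80, 7.84 and 7.82 (SD 0.02 in each group, difference -0.04, adjusted p = 0.978).

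Counted over the whole set, 3 of the 22 member probe sets passed, all higher in transgenic testis and all of Gcsh or Mthfd2l, where the background is 0.444% of 45037 probe sets in either direction and 0.171% higher. That count is fixed by how the members were chosen and nothing is read from it. Over the 17 probe sets of the other 7 genes, 0 passed (limma; 0 at an unadjusted p under 0.05, and 0 under each alternative fit), and 1 had non-overlapping groups, against 11.3% of all probe sets. Their median difference was 0.06 and that of all probe sets 0.02. All 17 intervals held 0 and together they spanned -0.54 to 0.40, so in this fit, which has no covariate, a doubling or halving of intensity lay outside each of them. These intervals bound the intensity and not the amount of transcript. Mthfd1 1436704_x_at and Dld 1433263_at were dim, at percentiles 15.4 and 26.0 of all probe sets by mean level.

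**Figure D2:**
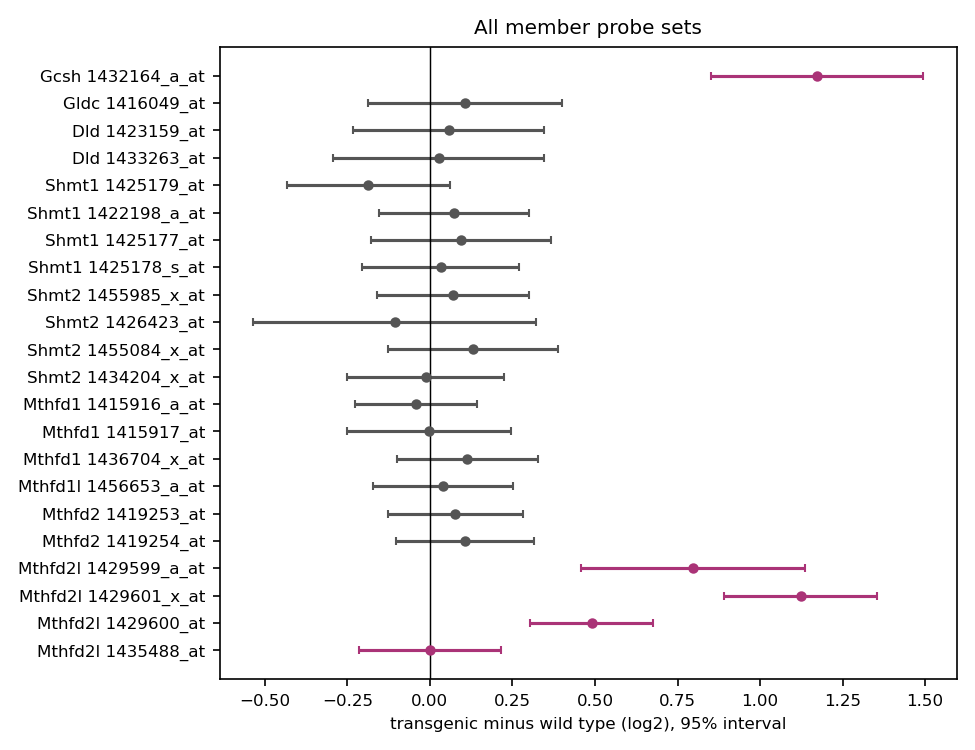
Transgenic minus wild type difference on the log2 scale with its 95% interval from limma for each of the 22 member probe sets, Gcsh and Mthfd2l in purple and the other genes in grey. The intervals of Gcsh and 3 of the Mthfd2l probe sets lie above 0, and the other 18 hold 0.

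The second principal component (27.2% of the variance) separated the genotypes, at -23.8 to -7.8 in wild type and 14.3 to 20.0 in transgenic arrays. The log2 signal of the 3' Gapdh control probe set less that of the 5' one, a measure of RNA integrity, was 0.06 to 0.16 in wild type and 0.21 to 0.33 in transgenic arrays (exact two-sided permutation p = 0.1, the smallest that 3 against 3 allows), while that of beta-actin overlapped (0.41 to 0.50 and 0.47 to 0.53). With the Gapdh difference as a covariate Gcsh read 1.42 (SE 0.27, limma adjusted p = 0.185) and Mthfd2l 1429601_x_at 1.05 (SE 0.20, adjusted p = 0.185), and 18 of all probe sets passed. The same covariate took Dld 1423159_at from 0.06 to 0.56 (SE 0.17, adjusted p = 0.358), and its other probe set from 0.03 to -0.33 (SE 0.25, adjusted p = 0.656). Shmt1 1425178_s_at and 1422198_a_at then read 0.37 and 0.32, and Shmt2 1426423_at and 1455084_x_at read 0.36 and -0.16, with adjusted p from 0.476 to 0.804. Wild type replicate 2 stood apart within its own group on the first component (42.2, the other 5 arrays between -23.3 and 5.3). It was the highest wild-type array for 13 of the 22 members and for 40.3% of all probe sets. Without it Gcsh read 1.32 (adjusted p = 0.000379) and Mthfd2l 1429601_x_at 1.18 (adjusted p = 0.000586). 

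The testis label was checked on the spermatid genes Prm1, Prm2, Tnp1 and Tnp2, whose mean level was 13.92 to 14.03 on every array. Lists of marker genes for other cells of the organ, and for epididymis and adipose tissue, were set beside the members. Each gene was taken at its brightest probe set. Of all 18193 genes taken so, 10317 were above 0. The share past the threshold was 0.616%, and 7.48% were at an unadjusted limma p under 0.05. The mean of 5 endothelial markers was 5.22 to 5.31 in wild type and 5.47 to 5.54 in transgenic testis, with 5 of 5 above 0 and 0 past the threshold (3 at an unadjusted limma p under 0.05). The mean of 5 macrophage markers was 6.73 to 6.91 and 7.01 to 7.06 (5 of 5 above 0, 0 past the threshold, 2 at an unadjusted p under 0.05), and that of 4 adipose markers 6.40 to 6.73 and 6.77 to 7.06 (4 of 4 above 0, 0 past, 1 at an unadjusted p under 0.05). The mean of 6 spermatocyte markers was 10.83 to 10.87 and 10.68 to 10.71 (2 of 6 above 0, 0 past, 2 at an unadjusted p under 0.05). Sertoli markers (8.26 to 8.39 and 8.26 to 8.35) and the 3 measured Leydig markers (9.92 to 10.11 and 9.89 to 10.07) overlapped, with 0 past the threshold or at an unadjusted p under 0.05, and the spermatogonial, spermatid, myoid and epididymal lists overlapped too. The part of RNA integrity and of these cell types and tissues in the Gcsh and Mthfd2l differences was not tested. As the Gapdh measure did not overlap between the genotypes, the fit with that covariate cannot tell RNA integrity from genotype. In whole testis a larger share of a cell type or tissue and more RNA per cell cannot be told apart.

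Of 84 genes in 5 related pathways, 73 were measured, each taken at its brightest probe set. None passed (limma; 8 at an unadjusted p under 0.05, 3 higher and 5 lower), where the background is 0.616% of 18193 genes past the threshold and 7.48% at an unadjusted p under 0.05. Their 136 single-gene probe sets gave 0 calls as well. The median difference of the 73 genes was 0.02, and that over all genes was also 0.02.

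Other folate enzymes and transporters (14 measured) had a median of 0.14, with 8 above 0 and 1 at an unadjusted p under 0.05. It was Aldh1l1, the cytosolic formyltetrahydrofolate dehydrogenase, at 7.60, 8.02 and 7.79 in wild type and 8.34, 8.16 and 8.23 in transgenic testis. Its groups did not overlap, and the difference of 0.44 had a limma adjusted p of 0.303 (SE 0.12), which was 0.0432 without wild type replicate 2. Mthfs, which returns 5-formyltetrahydrofolate to the active pool, read 0.33 (adjusted p = 0.768). Serine and glycine genes (19 measured, median 0.07, 11 above 0, 1 at an unadjusted p under 0.05) had their smallest p-values with Sardh, the mitochondrial sarcosine dehydrogenase that yields glycine, at 0.28 (limma adjusted p = 0.72, but 0.41 and 0.0409 with its probe sets averaged), and with the neutral amino acid transporter Slc1a4 at -0.21 (adjusted p = 0.842).

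Lipoate synthesis and the other lipoate-dependent complexes (16 measured) had a median of 0.01, with 10 above 0. Pdhx, the component that holds the L protein in the pyruvate dehydrogenase complex, read 9.47, 9.66 and 9.51 in wild type and 9.15, 9.10 and 9.06 in transgenic testis. The groups did not overlap, and the difference of -0.44 (SE 0.09) had a limma adjusted p of 0.109, which was 0.0453 after quantile normalization again and 0.0378 with trend and robust eBayes. Lias, the lipoyl synthase on which the H protein's lipoate arm depends, read -0.15 (adjusted p = 0.865). These 2 had the smallest p-values of that list, and 1 was under 0.05 before adjustment.

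Purine synthesis (12 measured) had a median of -0.01, with 5 above 0. Adssl1, the muscle-type adenylosuccinate synthase, read 5.60, 5.62 and 5.83 against 5.08, 5.15 and 5.20, without overlap. Its difference of -0.54 (SE 0.10) had the smallest adjusted p of all 73 genes, 0.063 (limma), which was 0.0357 after quantile normalization again and 0.0362 without wild type replicate 2. Gart, whose product uses formyltetrahydrofolate, read 0.17 (adjusted p = 0.842). The methionine cycle and transsulfuration list (12 measured) had a median of 0.00, with 6 above 0 and 4 at an unadjusted p under 0.05. Ahcy, which removes S-adenosylhomocysteine, read 8.82, 8.79 and 8.83 against 8.59, 8.37 and 8.54 (difference -0.31, SE 0.09, adjusted p = 0.381), and Bhmt2, a homocysteine methyltransferase, read -0.58 (SE 0.18, adjusted p = 0.443).

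**Figure D3:**
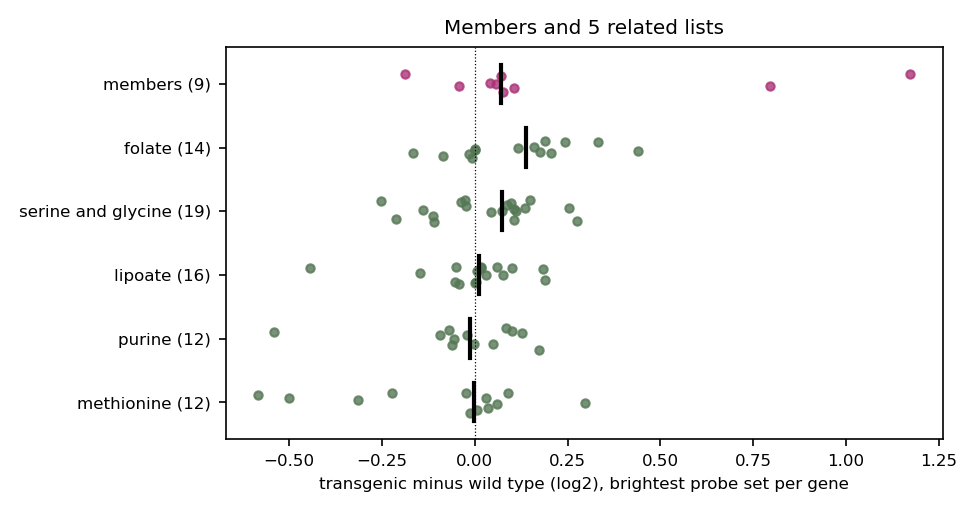
Transgenic minus wild type difference (log2) of the brightest probe set of each of the 9 measured members and of each gene in the 5 related lists, with the number of genes in brackets and the median as a black bar; vertical scatter only separates the points. The points at 0.80 and 1.17 are Mthfd2l and Gcsh, and all points of the related lists lie between -0.58 and 0.44.

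The genes next to Gcsh and Mthfd2l in the annotation were compared in the same fit, taking the 3 measured genes on each side (12 genes, 19 probe sets). None was higher past the threshold, and 1 probe set was lower, where the background is 0.444%. On chromosome 8, Gcsh lies between Cenpn, Atmin and 1700030J22Rik on one side and Pkd1l2, Bco1 and Cmip on the other. Bco1, the oxygenase that cleaves beta-carotene to retinal, read 8.40, 8.59 and 8.47 in wild type and 7.73, 7.96 and 7.87 in transgenic testis. It was lower on all transgenic arrays, by a difference of -0.63 (SE 0.10, limma adjusted p = 0.0326), opposite in sign to Gcsh. That call was lost without wild type replicate 1 (0.0548) or 3 (0.174) or transgenic replicate 1 (0.183), 2 (0.117) or 3 (0.166), and with the replicate block (0.0857). The other 9 probe sets beside Gcsh read between -0.12 and 0.18. On chromosome 5, Mthfd2l lies between the chemokine genes Cxcl15, Cxcl1 and Cxcl2 and the growth factor genes Epgn and Ereg with Gm19619. Their 9 probe sets read between -0.13 and 0.23, with 0 past the threshold and 1, of Epgn, at an unadjusted limma p under 0.05 (0.23, SE 0.09, adjusted p = 0.653).

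**Figure D4:**
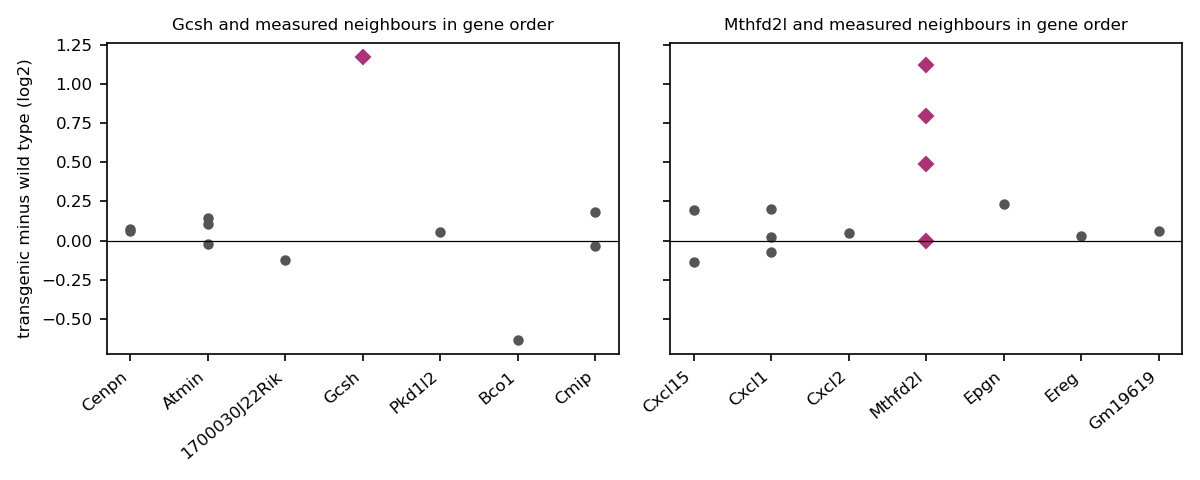
Transgenic minus wild type difference (log2) of every single-gene probe set of Gcsh (left) and Mthfd2l (right), as purple diamonds, and of the 3 nearest measured genes on each side, as grey points, in the order of the annotation. Bco1 at -0.63 is the point farthest from 0 among the neighbours.

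Gcsh and Mthfd2l followed each other over the 6 arrays, with a Pearson r of 0.98 between Gcsh and Mthfd2l 1429601_x_at, 0.98 with 1429599_a_at, 0.96 with 1429600_at and 0.08 with 1435488_at. These points share the split into genotypes, and the first 3 probe sets were apart by genotype, so the values are a description. The 5 genes whose probe set was most like Gcsh over the 6 arrays, among 22040 candidate probe sets, were Gfer (r = 0.996), Tmem131l (0.995), Nsd2 (0.995), Tmem175 (0.994) and Macroh2a3 (0.993). Gfer, a sulfhydryl oxidase of the mitochondrial intermembrane space, differed by 0.29 (limma adjusted p = 0.373) and Nsd2, a histone methyltransferase, by 0.53 (adjusted p = 0.0606). Those most like Mthfd2l 1429601_x_at were Serp1 (0.992), Igf2bp3 (0.992), Mgat4d (0.990), Akap3 (0.990) and Ranbp10 (0.990). Of these 10 genes only Mgat4d passed, at 8.82, 8.92 and 8.83 in wild type and 9.49, 9.64 and 9.55 in transgenic testis (difference 0.70, limma adjusted p = 0.0113). The background is 0.444% of all probe sets in either direction. The 10 were picked for likeness to probe sets that separate the genotypes, so nothing is read from that count. With 6 arrays in 2 groups, any probe set that separates the genotypes with tight replicates has a high r.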

How the data were processed

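Total RNA of whole testis was hybridised to 6 Affymetrix arrays, per the labels. Each deposited value is the log2 intensity of 1 probe set. The submitters' processing notes name RMA and affy, with no versions or parameters. Since RMA equalises the distributions of the arrays, a change common to all transcripts would not show. No build is named for the values, and coordinates belong to the RefSeq GRCm38.p6 promoter table.

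Of 45101 probe sets, 64 controls were left out and 45037 tested without a filter. The platform annotation gave 34945 of them 1 gene, 932 several and 9160 none here. Symbols were updated through RefSeq, which matched 34741. The genotype effect, wild type subtracted from transgenic, was fitted by lmFit and eBayes of limma (version 3.58.1, under R 4.3.3). Two-sided p-values were adjusted by Benjamini-Hochberg over all 45037 and read at 0.05. No array was a copy of another. The fit was tested on simulated data. Alternatives were a filter on the lowest 40%, other normalizations, variance moderation, a replicate block, array weights, a Gapdh integrity covariate, fewer probe set classes, averaged probe sets, a threshold of 0.1 and leaving out each array. Each alternative was adjusted over what it kept, which was 27015 probe sets with the filter, 36082 with fewer classes and 18193 genes with averaged probe sets.

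All members were named, with the genes past the threshold or the 2 of smallest p in each related list, 3 measured neighbours per side and the 5 most similar genes (probe sets in the upper 60% by mean). The members and lists were chosen with earlier results of these data known. The labels do not say that the replicate numbers pair animals, so the numbers were not taken as pairs. Deviations from the group mean had r of -0.32, -0.07 and -0.01 between same-numbered arrays. Between differently numbered arrays r ran from -0.19 to 0.25. With 3 arrays per group these values cannot settle whether animals were paired.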

Additional observations from a re-analysis of the deposited data

How the results depend on the processing

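Wherever an alternative kept them in the fit, Gcsh and the 3 differing Mthfd2l probe sets stayed higher in transgenic testis, Gcsh between 1.05 and 1.42 and Mthfd2l 1429601_x_at between 1.05 and 1.19. The count of 3 member probe sets past the threshold was 0 with the Gapdh covariate, 1 when probe sets of the _x_at, _s_at and _a_at classes were left out (which removes Gcsh and 1429601_x_at) and 1 to 4 without single arrays. The count of 0 related genes was 2 after quantile normalization again (Pdhx and Adssl1, both lower), 1 with trend and robust eBayes (Pdhx), 10 with array weights, 3 with averaged probe sets (Sardh higher, Pdhx and Adssl1 lower) and 0 to 2 without single arrays (Aldh1l1 and Adssl1 without wild type replicate 2). With averaged probe sets Pdhx and Adssl1 kept their differences of -0.44 and -0.54, and the adjustment ran over 18193 genes. The 1 neighbouring probe set was 2 with array weights, 0 with the replicate block, 0 with the Gapdh covariate and 0 to 1 without single arrays. Over all probe sets, 200 passed, 77 higher and 123 lower. The count was 306 with trend and robust eBayes, 4160 with array weights (2404 higher, 1756 lower), 117 with the replicate block, 18 with the Gapdh covariate and 70 to 429 without single arrays, 429 being without wild type replicate 2 (239 higher, 190 lower). Median centring gave 64 higher and 134 lower of 198. The array weights gave wild type replicate 3 a weight of 19.1 and the others 0.24 to 0.81, and their estimation stopped before it converged, so nothing is drawn from them. With the replicate block 2 member probe sets passed, Gcsh (adjusted p = 0.0298) and Mthfd2l 1429601_x_at (0.00831). The cause of these changes was not tested.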
